A study of Mus musculus with 2 samples.

Results

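The 10 genes described here are transcriptional targets of p53 that act in cell cycle arrest, in the control of p53 itself and in the handling of damaged DNA: *Cdkn1a*, *Mdm2*, *Ccng1*, *Btg2*, *Zmat3*, *Sesn2*, *Trp53inp1*, *Aen*, *Plk2* and *Polk*. They were chosen by name, as 10 of the 16665 genes listed in the 2 libraries together, and each of the 10 has a row in both. The libraries are single-cell RNA-seq of mouse enteroids, three-dimensional cultures of intestinal epithelium. They were started from crypts of the ileum, and the donor mice were 4 months old and of strain C57Bl6/129sv. The library labelled KO came from Taf4lox/lox::VilCreERT2 (Taf4 IEC) enteroids given 1 µM 4-hydroxytamoxifen (4-OHT) for 3 days, which activates a Cre recombinase driven by the Villin promoter in epithelial cells and should delete *Taf4*, which encodes a component of TFIID, a complex of the basal transcription machinery. The control library, labelled WT, held *Taf4* floxed enteroids without Cre, which had received 4-OHT according to the methods of the study and ethanol according to the label. Presence of VilCreERT2, deletion of *Taf4* and, on the reading of the label, exposure to 4-OHT therefore cannot be told apart. Live cells were sorted and captured with 10x chemistry, in which each molecule is counted once, near its 3′ end, by a unique molecular identifier (UMI).

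p53 is a transcription factor that is held at a low level in unstressed cells and accumulates after DNA damage and other stress. It then switches on genes that halt the cell cycle, that repair or tolerate DNA lesions, that limit growth and that lead to apoptosis, and some of its targets act back on p53. Mdm2, a ubiquitin ligase, marks p53 for degradation and closes a negative feedback loop. In the intestine, crypt stem and progenitor cells divide rapidly and are known for a strong p53 response to radiation, and Cdkn1a (p21), the inhibitor of cyclin-dependent kinases, is also made by differentiated epithelial cells that have left the cycle.

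A p53 binding site consists of 2 adjacent half-sites of 10 bases. It was searched in the RefSeq promoter windows of GRCm38.p6, the same mouse build as mm10 of the files, from 250 bases before to 50 after each annotated start. A site was counted where both half-sites kept their central C and G and the 20 bases had at most 2 mismatches to the p53 half-site consensus. The consensus is its own reverse complement, so that both strands were covered. Of the members, 8 had a window, and *Zmat3* and *Trp53inp1* had none in the table used. A site stood in the windows of 2 of these 8 genes, *Cdkn1a* and *Ccng1*, and in windows of 0.393% of all 26994 genes (0.326% of all 32817 windows). Both are shown as the matches to the p53 site found in promoter windows of members. The site is in capitals, and each stretch is written along the strand of the gene.
Cdkn1a, chr17:29090908-29090967, plus strand: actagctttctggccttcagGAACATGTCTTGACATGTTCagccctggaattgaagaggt
Ccng1, chr11:40755442-40755501, minus strand: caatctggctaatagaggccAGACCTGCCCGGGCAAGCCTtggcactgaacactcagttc
Each site had 1 mismatch. The *Cdkn1a* site ended 31 bases before the upstream one of its 2 annotated starts, and the *Ccng1* site ended 175 bases before the start on which its window is built, which lies inside the gene interval given with its values. An exact single half-site was present in a window of 5 of the 8 genes (*Cdkn1a*, *Mdm2*, *Ccng1*, *Aen* and *Polk*) and in windows of 9.55% of all genes (8.36% of all windows). Members with more than one window, as *Cdkn1a*, *Aen* and *Polk*, had more letters searched. These matches describe the sequence alone, since no binding was measured in these libraries.

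The control library held 2563 cells and 39947009 UMIs, and the KO-labelled library 1811 cells and 24990128 UMIs. The median depth was 16749 and 2254 UMIs per cell, and cells under 2000 UMIs made up 17.3% and 49.1% of the cells but only 1.22% and 3.06% of the UMIs. The libraries shared 2 cell barcodes. *Taf4* (chr2:179912146-179976646) was not lower in the library labelled KO, with 278 UMIs in the control and 236 in the other, a log2 ratio of 0.44 (0.18 to 0.70), so the label KO is used here as a name only. Which exons were removed is not given in the sources used here, and a count near the 3′ end need not read them. Markers of immune, mesenchymal and endothelial cells took 0.0626 and 0.0920 of 10000 UMIs, most of them *Vim*. In the control *Cd3e* was at 0, in the KO-labelled library *Col1a1*, and 3 of the 9 markers were listed in neither. With 1 library per group no test between groups was possible. Levels are UMIs per 10000 UMIs of all genes, log2 ratios are the KO-labelled library over the control, and the 95% intervals in parentheses cover counting error only.

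Over all cells each of the 10 genes had a higher level per 10000 UMIs in the KO-labelled library, as did 65.3% of the 10002 genes with at least 200 UMIs. *Cdkn1a*, *Ccng1*, *Plk2* and *Trp53inp1* were between 3.19-fold and 6.49-fold higher, *Mdm2*, *Zmat3*, *Sesn2* and *Polk* close to 2-fold, and *Aen* and *Btg2* less. A difference of at least 2-fold (a log2 ratio of at least 1) was reached by 7 of the 10 members, against 5.52% of these 10002 genes. Their median log2 ratio was 1.16 and that of the 10002 genes 0.16. When mitochondrial and ribosomal protein genes, *Gm42418* and *AY036118* were left out of the total, the median of all genes was -0.03 and 5 members reached 2-fold, with all 10 above the median of all genes. In cells thinned to 500 UMIs, and as a mean over cells, 9 of 10 were above it.

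**Figure D1:**
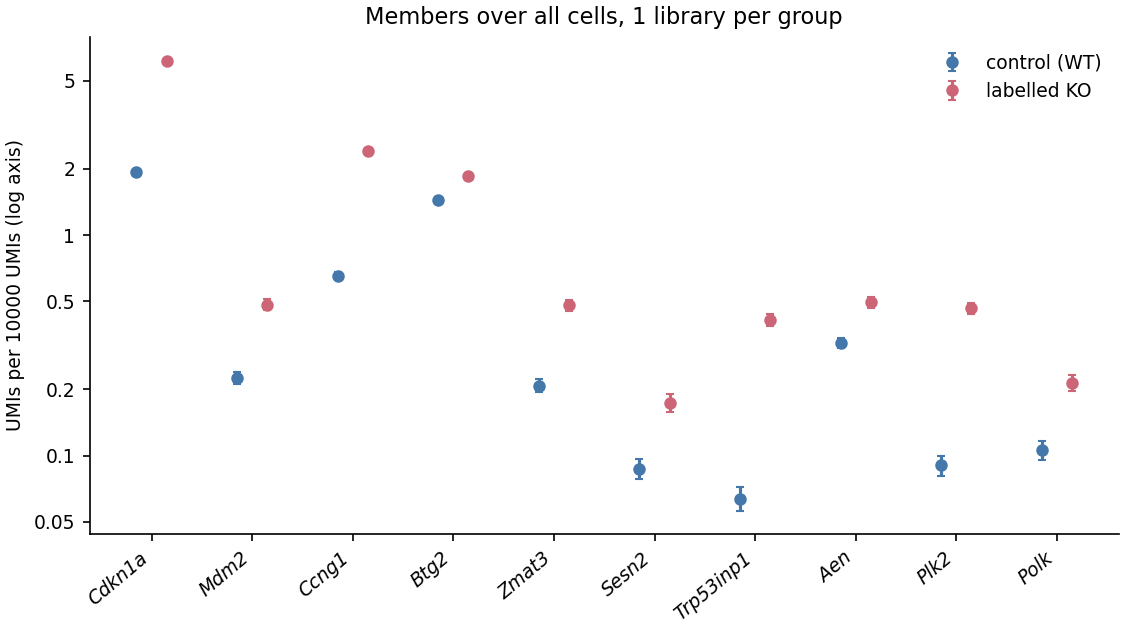
Level of each member over all cells, in UMIs per 10000 UMIs on a log axis, in the control (blue) and the KO-labelled library (red); bars are 95% Poisson intervals of the counts. Every red point stands above its blue point, with the smallest distance for *Btg2* (1.45 and 1.86) and the largest for *Trp53inp1* (0.0633 and 0.411).

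Among the genes of cell cycle arrest, *Cdkn1a* (chr17:29090979-29100722) was counted 7733 times in control cells, a level of 1.94 per 10000 (1.89 to 1.98), and 15409 times in KO-labelled cells, a level of 6.17 (6.07 to 6.26). Its log2 ratio was 1.67 (1.63 to 1.71). *Plk2* (chr13:110395044-110400844), a polo-like kinase of the early cell cycle, had 360 and 1163 UMIs, which is 0.0901 (0.0810 to 0.0999) and 0.465 (0.439 to 0.493) per 10000 and a log2 ratio of 2.37 (2.20 to 2.54). *Btg2* (chr1:134074865-134079155), an antiproliferative protein that recruits the deadenylase machinery to mRNAs, had the smallest difference of the 10, with 1.45 per 10000 (5775 UMIs) and 1.86 (4636 UMIs), a log2 ratio of 0.36 (0.30 to 0.42). The arrest genes thus ranged from 1.28-fold for *Btg2* to 5.16-fold for *Plk2*.

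Of the genes that act on p53, *Mdm2* (chr10:117688875-117710758) had 898 UMIs in the control and 1208 in the KO-labelled library, 0.225 (0.210 to 0.240) and 0.483 (0.457 to 0.511) per 10000, and a log2 ratio of 1.10 (0.98 to 1.23). *Ccng1* (chr11:40748552-40755309) encodes cyclin G1, which brings the phosphatase PP2A to Mdm2. Its level was 0.655 (0.630 to 0.680; 2615 UMIs) and 2.40 (2.34 to 2.46; 5993 UMIs), a log2 ratio of 1.87 (1.81 to 1.94). *Trp53inp1* (chr4:11156441-11174379), a stress-induced protein that promotes the activity of p53 and takes part in autophagy, differed most, with 253 UMIs and 1027 UMIs, 0.0633 (0.0558 to 0.0716) and 0.411 (0.386 to 0.437) per 10000, and a log2 ratio of 2.70 (2.50 to 2.90). Targets known to restrain p53 and one known to promote its activity were thus both higher in the KO-labelled library.

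The other members act on RNA, on growth and on DNA. *Zmat3* (chr3:32334792-32365665), a zinc finger protein that binds RNA and regulates splicing, had 0.207 and 0.481 UMIs per 10000 (828 and 1202 UMIs), a log2 ratio of 1.21 (1.09 to 1.34). *Sesn2* (chr4:132492804-132510456), which restrains the growth kinase complex mTORC1, had 0.0871 and 0.174 (348 and 434 UMIs), which was 1.99-fold (1.73 to 2.30), just under 2-fold. *Polk* (chr13:96480687-96542579), a DNA polymerase that copies past lesions, had 0.105 and 0.214 (421 and 535 UMIs), which was 2.03-fold (1.78 to 2.31). *Sesn2* and *Polk* thus stand on either side of the 2-fold line with intervals that both cross it. *Aen* (chr7:78895927-78911209), a nuclease of the apoptotic response, had 0.324 and 0.496 (1293 and 1239 UMIs), a log2 ratio of 0.62 (0.50 to 0.73).

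Each library was clustered alone, and clusters were named from marker lists. There were 1173 control and 432 KO-labelled stem-like cells, 232 and 311 enterocyte-like cells, 190 and 184 Paneth/goblet-like cells, and 264 and 201 enteroendocrine-like cells. Tuft-like cells (89 and 15) were too few in the KO-labelled library to be compared. The name is also weak in the control, where tuft markers took 1.27 of 10000 UMIs in this class and stem markers 15.4. In the KO-labelled class these values were 29.7 and 5.00. Clusters without a name held 615 and 668 cells with a median of 1574 and 652 UMIs, and they are not matched populations. In them, 10 of 10 members reached 2-fold, against 12.1% of 6749 genes.

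In stem-like cells the log2 ratio was larger than over all cells for each of the 10 members, as it was for 62.4% of 9805 genes, and it was above 0 for all 10, as for 67.9% of 10636 genes. *Cdkn1a* went from 0.725 UMIs per 10000 in control stem-like cells (1743 UMIs) to 4.18 (3885 UMIs), a log2 ratio of 2.53 (2.45 to 2.61). *Trp53inp1* had 0.0462 (111 UMIs) and 0.514 (478 UMIs), which was 11.1-fold and a log2 ratio of 3.48 (3.18 to 3.79), and *Plk2* 0.0748 and 0.565, a log2 ratio of 2.92 (2.67 to 3.17). For *Ccng1* (0.698 and 2.99) the log2 ratio was 2.10 (2.01 to 2.19), *Zmat3* (0.222 and 0.687) 1.63 (1.46 to 1.80), *Mdm2* (0.208 and 0.614) 1.56 (1.39 to 1.74), *Sesn2* (0.0711 and 0.188) 1.41 (1.09 to 1.72), *Polk* (0.111 and 0.276) 1.32 (1.06 to 1.57) and *Aen* (0.392 and 0.790) 1.01 (0.87 to 1.15). Only *Btg2* (1.21 and 1.90) stayed under 2-fold, at 0.65 (0.57 to 0.74). Thus 9 of 10 members reached 2-fold in stem-like cells, against 5.65% of 10636 genes with at least 50 UMIs there, and their median log2 ratio was 1.59, beside 0.19 for all these genes. Markers of other cells and of the cycle moved with this comparison. Paneth/goblet markers took 10.4 and 27.8 of 10000 UMIs in the stem-like cells of the 2 libraries, enterocyte markers 5.16 and 6.85, cell cycle genes 15.2 and 7.81, and their part in the differences was not tested.

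Stem-like cells were not one population. The 5 control clusters were led by S phase genes (2 clusters, with *Hist1h1b* and *Mcm4*), by mitotic genes (*Cenpf*), by *Edn1* and *Olfm4*, and by *Stk39* and *Sprr1a*. The 3 KO-labelled clusters were led by mitotic genes (*Cdc20*, 214 cells), by genes that include *Ccnd1*, *Lgr5* and *Olfm4* (185 cells) and by S phase genes (*Pclaf*, 33 cells). Their median depths were 2382, 34716 and 37076 UMIs per cell, so the largest was shallow. The mitotic control cluster had a median of 23791. For *Cdkn1a* the control clusters lay between 0.455 and 0.956 UMIs per 10000, and the KO-labelled clusters between 2.99 and 4.64. For *Ccng1* the ranges were 0.389 to 1.13 and 2.03 to 3.14, and for *Mdm2* 0.135 to 0.283 and 0.556 to 0.633. For *Btg2* they overlapped, with 0.830 to 1.68 and 1.11 to 2.18. In all, 9 of 10 members were higher in every KO-labelled stem-like cluster than in every control one, a separation seen for 19.5% of the 10636 genes. Clusters of 1 library are not replicates of a condition. Without the cluster of 185 cells the median log2 ratio in stem-like cells was 1.30 and *Btg2* was at 0.10. When both libraries were clustered together only 46 KO-labelled cells were stem-like, and the median was 0.84 with 4 members past 2-fold.

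**Figure D2:**
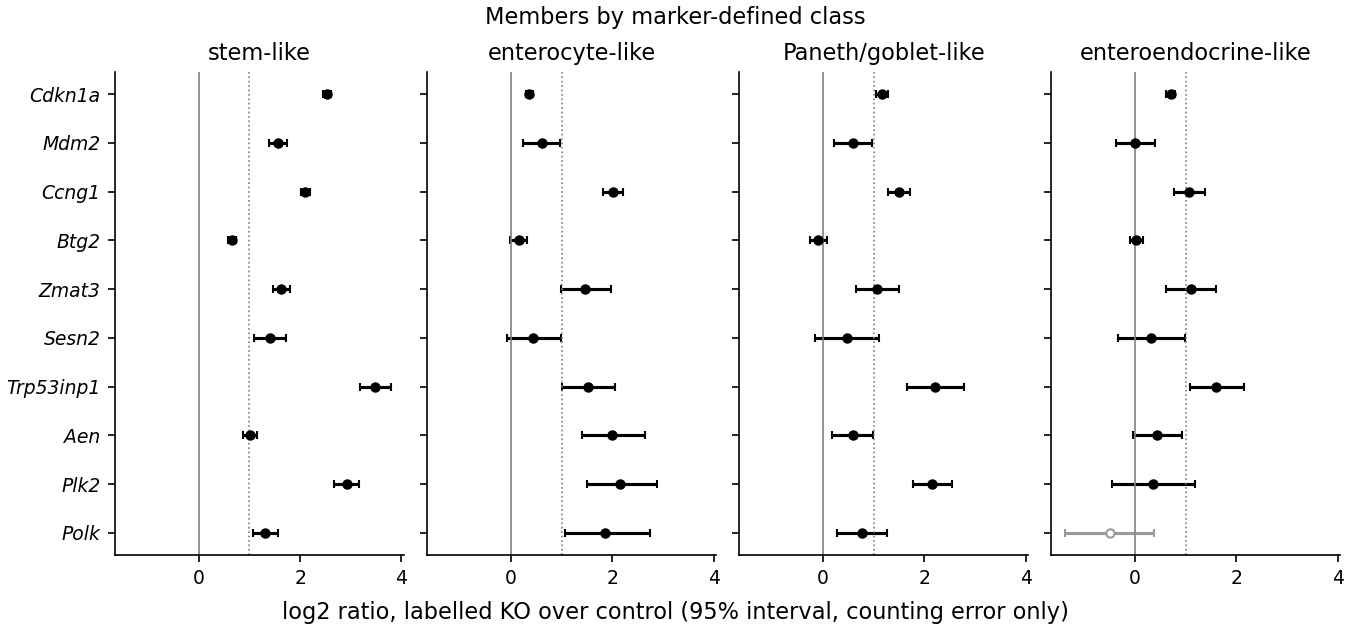
Log2 ratio of each member, KO-labelled library over control, in the 4 compared classes, with 95% intervals for counting error. The dotted line marks 2-fold and the open grey symbol a member with under 50 UMIs. In stem-like cells 9 of 10 points lie past 2-fold, whereas in enteroendocrine-like cells 3 do, and the enterocyte-like panel includes the cluster of 142 cells that held 3 of 13 markers.

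In enterocyte-like cells *Cdkn1a* was already abundant in the control, at 5.54 UMIs per 10000 (2461 UMIs), and reached 7.13 (6342 UMIs) in the KO-labelled library, a log2 ratio of 0.36 (0.30 to 0.43). *Ccng1* in the same cells had 0.518 and 2.10, a log2 ratio of 2.02 (1.82 to 2.22), far apart from *Cdkn1a*, whereas over all cells the ratios of these genes were 1.67 and 1.87. *Btg2* was at 0.973 and 1.08, a log2 ratio of 0.15 whose interval held 0 (-0.01 to 0.32). Of the members, 6 of 10 reached 2-fold, against 4.36% of 8510 genes, and the median was 1.49. This count rests in part on 1 KO-labelled cluster of 142 cells that met only 3 of the 13 enterocyte markers and had none of them among its 10 leading genes, of which *Tmem237*, *Ms4a18* and *2610528A11Rik* also led an unnamed control cluster of 186 cells. Without it, 5 of 10 members reached 2-fold, against 2.74% of 7473 genes, with a median of 0.77. The members past 2-fold were then *Ccng1* (1.83, 1.62 to 2.05), *Polk* (1.45, 0.57 to 2.40), *Plk2* (1.27, 0.51 to 2.08), *Aen* (1.12, 0.43 to 1.85) and *Trp53inp1* (1.06, 0.48 to 1.66). Of these intervals, only that of *Ccng1* lay wholly past 2-fold. *Cdkn1a* was at 0.48 (0.40 to 0.55), *Mdm2* at 0.14 (-0.30 to 0.58) and *Zmat3* at 0.48 (-0.12 to 1.08).

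Paneth/goblet-like cells showed 5 of 10 members past 2-fold, against 2.70% of 7433 genes. *Trp53inp1* (0.107 and 0.494 UMIs per 10000) had a log2 ratio of 2.20 (1.66 to 2.78), *Plk2* (0.234 and 1.04) 2.15 (1.79 to 2.54), *Cdkn1a* (2.59 and 5.82) 1.17 (1.05 to 1.29) and *Zmat3* (0.224 and 0.471) 1.07. The ratio of *Ccng1* (0.815 and 2.30) lay between 1.29 and 1.71. *Btg2* was at 1.89 and 1.77, a log2 ratio of -0.09 (-0.26 to 0.08). In the control these cells were a single cluster, whereas in the KO-labelled library a shallow cluster led by defensins (97 cells, *Cdkn1a* 2.79) and a deep one led by *Muc2* (87 cells, *Cdkn1a* 6.15) made up the class. The deep cluster held 2736665 UMIs and the shallow one 297524.

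Enteroendocrine-like cells had the highest *Cdkn1a* level of the 4 classes in each library and the smallest median log2 ratio of the members, 0.44 over the 9 with at least 50 UMIs. *Cdkn1a* had 7.13 UMIs per 10000 in the control (1839 UMIs) and 11.6 in the KO-labelled library (2905 UMIs), a log2 ratio of 0.70 (0.62 to 0.79). In each library most of these UMIs came from 1 cluster, of 167 control cells (8.58 per 10000) and of 129 KO-labelled cells (12.1 per 10000), while the other clusters of the class lay between 1.53 and 3.15. *Mdm2* was at 0.446 and 0.447, a log2 ratio of 0.01 (-0.38 to 0.39), and *Btg2* at 4.26 and 4.33, a log2 ratio of 0.02 (-0.10 to 0.15), which in both libraries was the highest *Btg2* level of the 4 classes. The 3 members past 2-fold, of 9 with at least 50 UMIs and against 5.73% of 8044 genes, were *Trp53inp1* (0.159 and 0.483, a log2 ratio of 1.60, 1.08 to 2.15), *Zmat3* (0.205 and 0.439, 1.10, 0.61 to 1.60) and *Ccng1* (129 and 263 UMIs, 1.07, 0.76 to 1.39). Of these intervals, only that of *Trp53inp1* lay wholly past 2-fold. *Polk* had under 50 UMIs here. Intervals that held 0 do not show that a gene was the same in the 2 libraries.

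For *Cdkn1a* in the control, the pooled levels of the classes ran from stem-like (0.725), Paneth/goblet-like (2.59) and enterocyte-like (5.54) to enteroendocrine-like cells (7.13). Intervals for counting error did not overlap between neighbours. In the KO-labelled library the pooled levels ran in the same order, 4.18, 5.82, 7.13 and 11.6, so that the highest and the lowest class were closer as a ratio than in the control. Single clusters did not keep this order. In the control the lowest enterocyte-like cluster was at 0.602 and the lowest enteroendocrine-like cluster at 1.53, both below the Paneth/goblet-like level. The lowest KO-labelled enteroendocrine-like cluster was at 3.15, below the highest stem-like one at 4.64. *Ccng1* had another order. In the control its level was highest in Paneth/goblet-like cells (0.815, 0.719 to 0.921) and next in stem-like cells (0.698, 0.665 to 0.732), with intervals that overlapped. The highest control stem-like cluster was at 1.13. Enterocyte-like and enteroendocrine-like cells of the control were also not apart beyond their intervals. In the KO-labelled library the *Ccng1* level was highest in stem-like (2.99) and lowest in enteroendocrine-like cells (1.05). The ratio was higher in stem-like than in Paneth/goblet-like cells for 10 of 10 members (64.6% of 7374 genes), than in enteroendocrine-like cells for 9 of the 9 with at least 50 UMIs there (44.1% of 7730 genes), and than in enterocyte-like cells for 8 of 10 (58.8% of 8306 genes), all without a test.

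**Figure D3:**
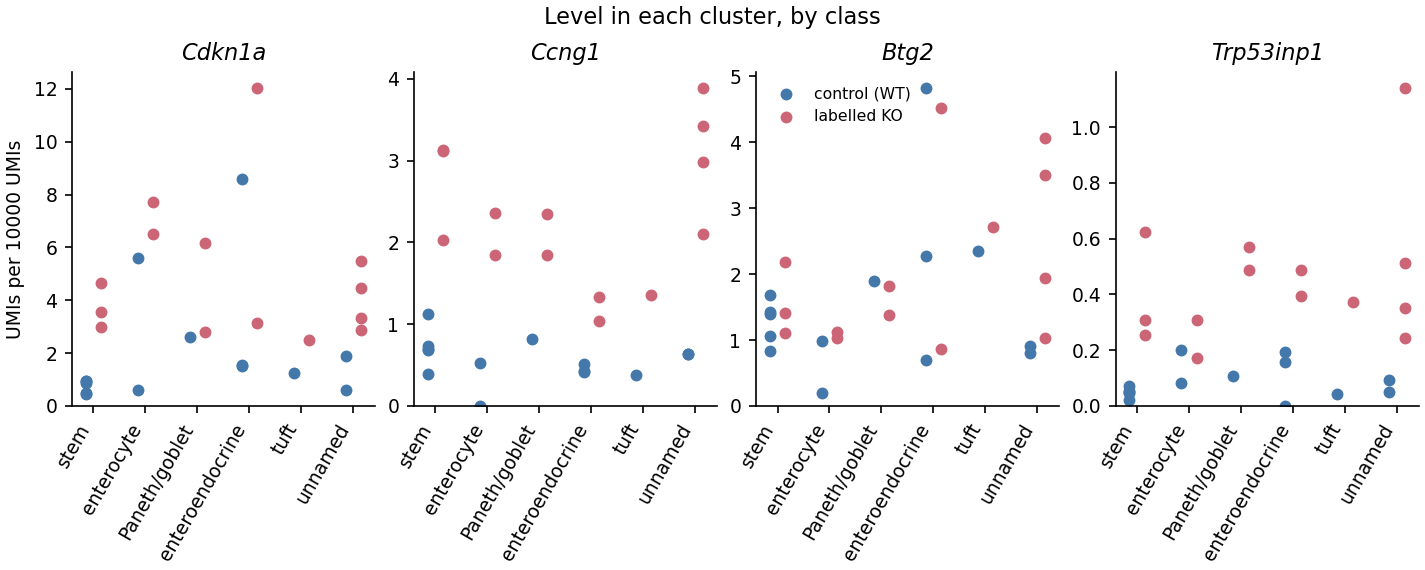
Level of 4 members, in UMIs per 10000 UMIs, in each cluster of the control (blue) and the KO-labelled library (red), grouped by class; 1 point is 1 cluster, and 14 clusters of each library are shown. Blue and red points are apart in the stem column for *Cdkn1a*, *Ccng1* and *Trp53inp1* and mixed for *Btg2*.

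Depth differed between the libraries, so members were also compared among cells of like depth. Cells of like depth were not matched for cell type. Control stem-like cells had a median of 20650 UMIs and control enteroendocrine-like cells 9937, while the KO-labelled stem-like cluster of 214 cells had 2382. The part of cell type in the differences within a range was not tested. In cells under 1000 UMIs (216 and 660 cells) the summed level of the members was 3.69 per 10000 in the control and 10.3 in the KO-labelled library. From 1000 to 2000 UMIs it was 3.52 and 10.9, from 10000 to 30000 UMIs 5.06 and 15.9, and above 30000 UMIs 4.78 and 12.7. All 10 members were higher in the KO-labelled library in each of these 4 ranges, as were 63.8%, 67.5%, 71.8% and 61.1% of the 10002 genes. The interval of the log2 ratio lay above 0 for 3, 7, 10 and 10 members, beside 4.90%, 7.54%, 52.3% and 30.9% of these genes. Between 2000 and 10000 UMIs (291 and 233 cells) the sums were closer, 8.14 and 9.66, and 8 of 10 members were higher, all 8 with intervals above 0, beside 56.9% and 14.1% of the genes. *Cdkn1a* was lower there, at 3.72 (618 UMIs) and 2.69 (277 UMIs), a log2 ratio of -0.47 (-0.68 to -0.26), as was *Btg2*, at 2.43 and 1.59, a log2 ratio of -0.61 (-0.88 to -0.34). *Ccng1* was at 0.578 and 2.20 in the same cells, a log2 ratio of 1.93 (1.58 to 2.29).

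To count the members detected per cell, each cell was thinned to 2000 UMIs and shallower cells were left out (444 control and 890 KO-labelled cells). Such counts rise whenever single members are detected more often, so they do not show whether members go together in the same cells. A cell had on average 0.786 of the 10 members detected in the control and 1.64 in the KO-labelled library. None was detected in 44.1% of 2119 control cells and in 16.2% of 921 KO-labelled cells. At least 3 members were detected in 3.63% (77 cells) of control and in 193 of 921 KO-labelled cells, a difference of 17.3 points (14.6 to 20.2). In stem-like cells the shares were 2.40% of 1166 and 22.4% of 330 cells, a difference of 20.0 points, and at a depth of 5000 UMIs 17.9% of 1150 and 65.4% of 272 cells. In enterocyte-like cells the difference at 2000 UMIs was 9.80 points (4.17 to 15.3), in Paneth/goblet-like cells 16.0 (6.89 to 25.8) and in enteroendocrine-like cells 10.3 (2.58 to 18.5). Without thinning the order turned, with 56.8% of control and 45.9% of KO-labelled cells holding at least 3 members. No epithelial cell type is known to lack these genes, so a background share from free RNA could not be given and its part was not tested.

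**Figure D4:**
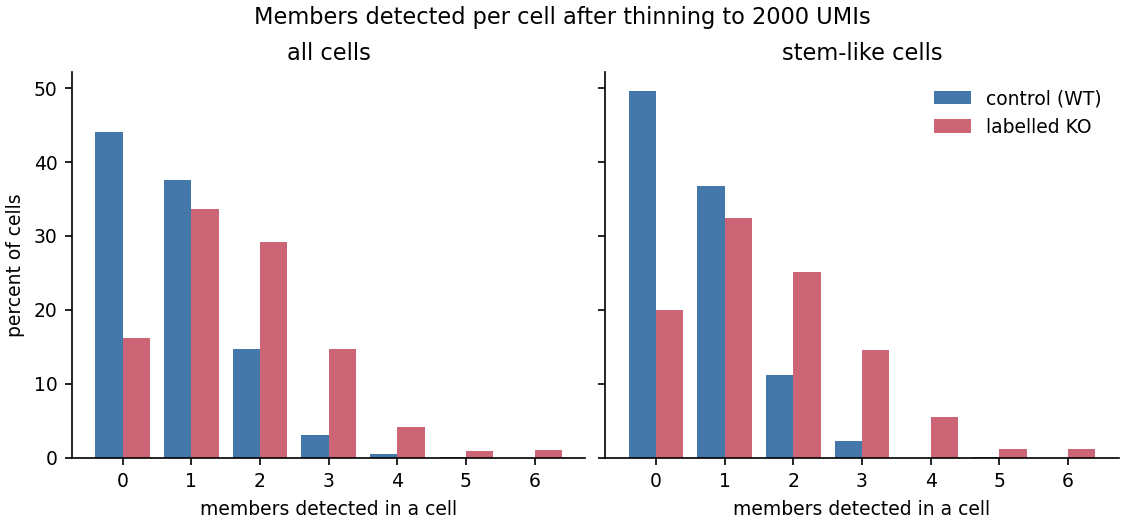
Percent of cells with a given number of the 10 members detected, after thinning each cell to 2000 UMIs, in all cells (left) and stem-like cells (right) of the control (blue) and the KO-labelled library (red). Cells with none are the largest blue group (44.1% and 49.7%), while 1 detected member is the largest red group (33.7% in all cells).

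Single members followed the same order. In stem-like cells thinned to 2000 UMIs, a UMI of *Cdkn1a* was found in 11.7% of control (9.88 to 13.6) and 37.6% of KO-labelled cells (32.3 to 43.0), one of *Ccng1* in 128 of 1166 and 115 of 330 cells, one of *Aen* in 7.38% and 15.2%, and one of *Btg2* in 22.1% and 26.7%. The variance of thinned *Cdkn1a* UMIs over their mean was 1.16 in control stem-like cells and 2.00 in KO-labelled ones. At least 5 UMIs were seen in 1.82% of the latter and in none of the 1166 control cells, which allows a share of up to 0.257%. The mean itself was 0.134 and 0.670 UMIs per cell, and both measures can rise with it. A difference in spread apart from the level was therefore not tested. For *Ccng1* the variance over the mean was 1.06 and 1.15, near the value of 1 that counting alone would give.

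Of the 45 pairs of members, most were too rare for a comparison of joint detection with the product of the single shares. Among the 13 pairs for which that product gave at least 10 KO-labelled stem-like cells, the ratio of observed to product had a lowest value of 0.957 and a median of 1.16, and 10 pairs were above 1. The pair of *Cdkn1a* and *Ccng1*, the most often detected together, was found in 45 of 330 cells, where the product gave 43.2. The highest ratio was that of *Cdkn1a* and *Zmat3*, together in 19 cells against 13.5, and *Cdkn1a* and *Aen* in 25 against 18.8. Among the rarer pairs the ratios spread further, from *Mdm2* and *Sesn2* in 0 cells against 0.982 to *Plk2* and *Polk* in 7 cells against 1.75. In control stem-like cells 7 pairs had enough cells, with a ratio from 0.769 to 1.60 and a median of 1.10. The correlation of thinned UMIs over all 45 pairs had a median of 0.05 in KO-labelled stem-like cells and of -0.003 in control ones. In counts this sparse such values are a description of 330 and 1166 cells only.

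Stem-like cells with and without transcripts of 17 cell cycle genes were set side by side, since *Cdkn1a* halts the cycle. After thinning to 2000 UMIs, 325 control cells had no UMI of these genes and 621 at least 2, against 135 and 125 KO-labelled cells. Control cells with cycle UMIs had 0.805 *Cdkn1a* UMIs per 10000 (100 UMIs) and cells without had 0.431 (28 UMIs), a log2 difference of 0.90 (0.29 to 1.56). KO-labelled cells had 2.88 (72 UMIs) with and 4.67 (126 UMIs) without, a log2 difference of -0.70 (-1.13 to -0.27). *Btg2* in KO-labelled cells was at 1.16 with and 2.41 without cycle UMIs, a log2 difference of -1.05 (-1.74 to -0.40), and *Ccng1* at 2.48 and 2.22, a log2 difference of 0.16 (-0.38 to 0.70). *Cdkn1a* was therefore more abundant in KO-labelled than in control stem-like cells both with and without cycle transcripts. Summed over the members, the KO-labelled cells had 9.80 with and 13.3 without.

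The rest of the p53 pathway was read from 3 fixed lists. Of 20 other p53 targets 19 were in the files, and 9 of these 19 were at least 2-fold higher over all cells and 0 lower (5.52% and 3.48% of all genes), with a median log2 ratio of 0.99. The largest values were those of 2 receptors of the TNF receptor family, *Eda2r* (57 and 302 UMIs, with 3.08, 2.67 to 3.52) and the death receptor *Fas* (94 and 268 UMIs, with 2.19, 1.84 to 2.54). *Bax*, the effector of mitochondrial apoptosis, had 1.71 and 3.39, a log2 ratio of 0.99 (0.94 to 1.04). *Gdf15*, a stress cytokine, had 0.850 and 1.92, a log2 ratio of 1.18 (1.11 to 1.24). Of the nucleotide excision repair genes, *Ercc5* was at 1.63 (1.44 to 1.83), whereas *Ddb2* (-0.41, -0.67 to -0.15) and *Xpc* (0.28, 0.07 to 0.50) did not reach 2-fold in either direction. In stem-like cells 12 of 19 reached 2-fold (5.65% of all genes there), with a median of 1.41 beside 0.19 for all genes there, and *Ercc5* was at 2.14.

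The 10 regulators of p53 had a median log2 ratio of 0.10 over all cells, near that of all genes, with 0 at least 2-fold higher and 1, the checkpoint kinase *Chek1* (-1.23, -1.52 to -0.95), at least 2-fold lower. The transcript of p53 itself, *Trp53*, was at 0.813 UMIs per 10000 in the control and 0.558 in the KO-labelled library, a log2 ratio of -0.54 (-0.63 to -0.45), and in stem-like cells at 1.03 and 0.970, -0.09 (-0.20 to 0.02). *Mdm4*, which binds and inhibits p53, was at 0.57 (0.45 to 0.69), and the phosphatase *Ppm1d*, itself a target that dampens the response, at 0.60 (0.32 to 0.88) over all cells and 1.04 in stem-like cells, where it was the only regulator past 2-fold (5.65% of genes there). The *Trp53* transcript and those of the members thus differed in opposite directions over all cells. The protein was not measured.

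Relatives of the members in the same gene families had a share past 2-fold near that of all genes. Of 14 listed, 12 had at least 200 UMIs, and 1 of these 12, *Trp53inp2* (0.0816 and 0.217, a log2 ratio of 1.41, 1.21 to 1.61), reached 2-fold (5.52% of all genes), with a median of 0.31 beside 0.16. *Cdkn1b* (p27) and *Cdkn1c* (p57), the other inhibitors of the family of p21, were at 0.18 (0.06 to 0.31) and 0.61 (0.37 to 0.85), while *Ccng2* was at 0.06 (-0.17 to 0.29), *Btg1* at 0.27 (0.22 to 0.32), *Plk3* at 0.38 (0.06 to 0.69) and *Sesn3* at -0.29 (-0.44 to -0.15). None of the 12 had a larger ratio over all cells than the member of its family, while *Btg3*, with under 200 UMIs, was at 0.46 (-0.05 to 0.97). In stem-like cells *Btg3* (43 and 34 UMIs) was at 1.03 (0.34 to 1.72), above *Btg2* at 0.65 (0.57 to 0.74). It was the 1 relative past 2-fold there, of 13 with at least 50 UMIs (5.65% of genes there). *Mdm4* and *Sesn1* stand in 2 lists each. The 17 cell cycle genes went the other way over all cells, with 14 at least 2-fold lower (3.48% of all genes) and a median of -1.44. They also did in stem-like cells, with 7 at least 2-fold lower (3.97% of genes there) and a median of -0.92. In the cells without a name they were higher like the members, with 9 at least 2-fold higher (12.1% of 6749 genes) and a median of 1.15.

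**Figure D5:**
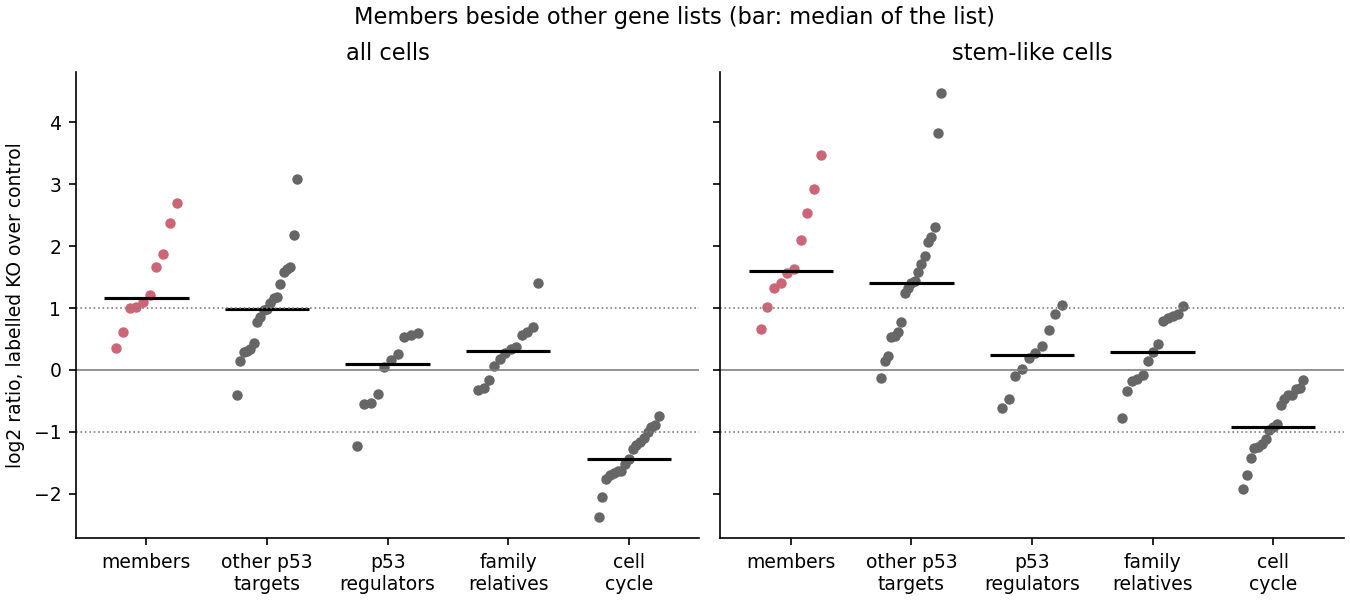
Log2 ratio of each gene, KO-labelled library over control, for the 10 members (red) and 4 other lists (grey), over all cells (left) and in stem-like cells (right); 1 point is 1 gene with enough UMIs, the black bar is the median of the list and dotted lines mark 2-fold. Members and other p53 targets lie mostly above 0 with medians of 1.16 and 0.99 over all cells, and cell cycle genes below 0 with a median of -1.44.

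Over the 28 clusters of both libraries, the log2 level of the summed members was close to that of *Lmna* (Pearson r of 0.84), *Tob1* (0.84), *Jund* (0.83) and *Lamtor3* (0.82), which are among the 5 genes with the highest r outside all lists. Over all cells the log2 ratio was 1.29 for *Lmna*, 0.95 for *Tob1*, 0.56 for *Jund* and 0.95 for *Lamtor3*. The sum leans on *Cdkn1a*, its most counted member, which had an r of 0.90 with it. For the other members this r ran from 0.41 (*Aen*) to 0.81 (*Sesn2*). The clusters of a library share its depth and its condition, so that r mixes differences between cell types with the difference between the libraries.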

How the data were processed

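The files hold the raw UMI counts deposited by the authors, 1 library per group, with no normalization. Reads had been aligned to mm10 in Cell Ranger 3.1 (version from the submitters' processing notes) and unexpressed genes removed. The cell filter of the authors, from 200 to 6000 genes and below 15% mitochondrial reads, is met by every cell. Here counts were summed over cells and divided by the total, in Python 3.11.15 with scipy 1.17.1. Levels have exact Poisson, ratios exact conditional binomial, shares Clopper-Pearson and differences of shares square-and-add 95% intervals, which cover counting error only. Genes needed 200 UMIs over both libraries, or 50 within a class.

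Each library was clustered in Seurat 5.3.0 (20 principal components, resolution 0.9, 2000 variable genes, UMI count and mitochondrial percent regressed out). A marker counted for a cluster from 10 UMIs and 1.5 times the mean of both libraries. Classes needed 3 such markers, and the class with most was taken. Ties and clusters with more leading genes of another class were to get no name. A cluster with none of its own markers among its 10 leading genes got none if it was shallow or led by low-quality genes. Those were mitochondrial genes, *Gm42418*, *AY036118*, *Malat1* and *Lars2*. This left KO-labelled clusters of 481 and of 105 cells unnamed, the latter with 5 of 11 stem markers. Scrublet (scanpy 1.11.5) predicted 10 control and 0 KO-labelled doublets, which were kept. Since 0 of 1811 is under what the tool should mark, doublets remain unassessed there. The functions for ratios and for thinning were tested on simulated data, while clustering, naming, pairs and the site search were not. The simulated counts of the ratios followed the Poisson model behind the intervals, so extra spread between cells or libraries was not covered.

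The members, lists, classes and alternatives were chosen with earlier results of these data known. The named genes are the members, *Taf4*, the genes of the other p53 and family lists, and the 5 genes most correlated with the summed members, of which 1 is not reported here. Genes that lead clusters were picked for the text with their values in view.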

Additional observations from a re-analysis of the deposited data

Results flagged for a closer look

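In stem-like cells *Cdkn1a* differed in opposite directions between cells with at least 2 and cells with no UMIs of the cycle genes in the 2 libraries. Control cells gave a log2 difference of 0.90 (0.29 to 1.56). KO-labelled cells gave -0.70 (-1.13 to -0.27). It was singled out because both intervals exclude 0 on opposite sides, and the difference between the libraries was not tested. The stem-like cells compared come from 5 control and 3 KO-labelled clusters with different leading genes.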

How the results depend on the processing

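All 10 members were higher in the KO-labelled library over all cells under each of the 9 alternatives, and 5 to 8 of them reached 2-fold, while the share of all genes past 2-fold ran from 3.75% to 12.3%. With cells thinned to 500 UMIs and as a mean over cells, 9 members were above the median of all genes. At 500 UMIs the intervals of *Btg2* (0.21, -0.11 to 0.53) and *Aen* (0.47, -0.16 to 1.10) held 0. The median log2 ratio over all cells (1.16) was 0.98 with mitochondrial, ribosomal protein and the named nuclear genes left out of the total, 1.00 with median-of-ratios scaling, 1.44 as a mean over cells and 1.39 with classes weighted as in the control. In stem-like cells (1.59) it was 0.84 with both libraries clustered together, 1.37 without regression, 1.02 when a marker counted from 2 times and 1.30 without the KO-labelled cluster of 185 cells. *Btg2* was reversed there, at -0.59, when a marker counted from 2 times, which left 138 control and 33 KO-labelled cells. In enterocyte-like cells (1.49) it was 0.77 without the cluster of 142 cells. The difference in the share of cells with at least 3 members (17.3 points) was 34.9 points at 5000 UMIs, -10.9 points without thinning, and 27.9 and 1.86 points for at least 1 and at least 5 members. Leaving out cells under 10000 UMIs, single stem-like clusters or the cluster of 142 cells was chosen after seeing the data. No paired analysis was possible because each group has 1 library, and no replicate could be left out. Members with few UMIs in a class, such as *Polk*, are limited by depth.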
